A study of Homo sapiens with 24 samples.

Results

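The comparison here is between AC220 and MI-503 in MV411, set directly against each other, and it asks which genes separate a block of the FLT3 kinase from a block of menin in the same cells. All genes with a normalised read count of at least 10 in at least 3 of the 12 MV411 libraries were taken, which were 14421 of the 25680 genes in the table. The libraries compared were 3 from cells given 3 nM AC220 for 24 h and 3 from cells given 2.5 µM MI-503 for 3 days. MV411 is an established acute myeloid leukaemia line of monocytic type that carries a fusion of KMT2A (MLL) to AFF1 and an internal tandem duplication in FLT3, and all groups share this genotype. AC220 is quizartinib, an inhibitor of the FLT3 kinase. MI-503 occupies the pocket of menin that binds MLL proteins. Beside these stood 3 libraries from cells given DMSO, for which the labels give no duration in this line, and 3 from cells given the pair of drugs at the same doses and times. The libraries are biological triplicates per the labels, and how the cultures were separated was not described, so p-values measure the spread between these libraries. Drug, dose and time differ together between AC220 and MI-503 and cannot be told apart. A further 12 libraries came from MOLM13 and OCI-AML3, where MI-503 at 2.5 µM for 4 days was set against DMSO.

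FLT3 is a receptor tyrosine kinase of blood progenitors. With the internal tandem duplication it signals without its ligand, through STAT5, the RAS to ERK cascade and the AKT pathway, which holds FOXO factors out of the nucleus. Menin is the product of MEN1. It tethers MLL proteins and MLL fusions to chromatin at the later HOXA genes, MEIS1 and other genes that keep myeloid cells immature. FLT3 is itself one of the genes whose transcription depends on MLL fusions and on HOXA9 with MEIS1, so that the 2 drugs meet on 1 gene, at its kinase in one case and at its transcript in the other.

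AC220 and MI-503 left very different transcriptomes. With AC220 4873 of 14421 genes (33.8%) were higher than with MI-503 and 4975 (34.5%) were lower, which together made 9848 genes (68.3%) at an adjusted p under 0.05 in limma. For counts on the gene lists below, 33.8% and 34.5% are the shares of all tested genes. Most of the called differences were small. Of the called genes 80.8% differed by less than 2-fold, and the quartiles over all tested genes lay at log2 differences of -0.35 and 0.34. At least 2-fold higher with AC220 were 793 genes (5.50%), and at least 2-fold lower were 1100 (7.63%). At 4-fold or more the counts were 130 and 378, so that the long tail lay on the lower side. The 3 AC220 libraries did not overlap the 3 MI-503 libraries in 10505 genes (72.8%). Of 4573 genes that were not called, 3194 had a 95% interval of the difference within 1.5-fold. Values are reads divided by 1 factor per library, differences are on the scale of log2(value + 1), and a fold is taken back from that scale. The 6 libraries held 25245088 to 26596469 reads assigned to genes, and replicates of 1 group differed by more than counting noise. The scaling sets the median gene to no change, so a shift shared by most genes cannot be seen. In these bulk samples fewer cells of a type and less RNA per cell cannot be told apart.

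**Figure D1:**
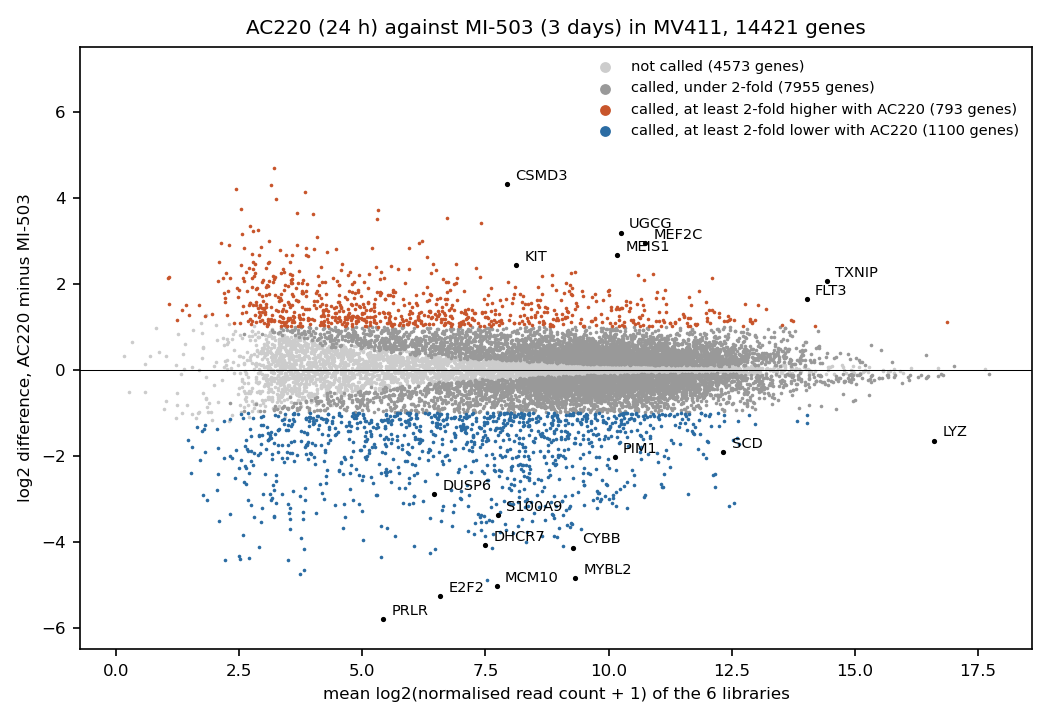
Each point is 1 of 14421 genes, with its mean log2(normalised read count + 1) over the 6 libraries on the x axis and its log2 difference, AC220 minus MI-503, on the y axis. The 1100 genes at least 2-fold lower with AC220 reach further from 0 than the 793 genes at least 2-fold higher, down to PRLR at -5.81 and E2F2 at -5.27.

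Each drug was also set against the same 3 DMSO libraries, to show which drug had moved from the untreated level. AC220 gave 37.7% of genes higher than DMSO and 37.3% lower. MI-503 gave 29.8% higher and 30.8% lower. These 2 comparisons share their controls, so their values are only given side by side. With a change of at least 1.5-fold that also passed the test counted as a move, the 793 genes at least 2-fold higher with AC220 held 390 that had moved up with AC220 alone (49.2%), 189 that had moved down with MI-503 alone (23.8%) and 84 that had moved in opposite directions (10.6%). The 1100 genes at least 2-fold lower with AC220 were made up differently. In 743 of them (67.5%) AC220 alone had moved, downward. MI-503 alone had moved upward in 110 (10%), both drugs had moved downward in 142 (12.9%), further with AC220, and 57 (5.18%) went opposite ways. Both sets were chosen on the same AC220 and MI-503 values, so their make-up is partly set by that choice. Shares of all tested genes under the 1.5-fold rule were not taken.

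Targets of the MLL fusion were higher with AC220 than with MI-503, and most of them were called lower with MI-503 than with DMSO. Of 19 tested genes on a list of MLL fusion targets outside the HOX clusters, 17 were higher with AC220 and 1 was lower, with a median difference of 1.30 against 0.01 over all tested genes. Against DMSO 16 of them were lower with MI-503 and 13 higher with AC220. The same genes had median changes from DMSO of 0.27 with AC220 and -0.85 with MI-503. FLT3 itself (chromosome 13, 28003274 to 28100576 on GRCh38) gave 28812, 29640.1 and 29909 normalised reads with AC220 and 9306, 9580.0 and 9335 with MI-503. DMSO libraries lay between them at 16486 to 17851, and the combination at 13157 to 14271. The transcript was thus highest when its kinase was blocked and lowest with the menin inhibitor, a log2 difference of 1.65 ± 0.040 (SE) or 3.13-fold (adjusted p = 1.6e-20). MEIS1, a homeodomain partner of HOXA9 (chromosome 2, 66435125 to 66573869), gave 2853, 2895 and 2964 with AC220 and 461, 449 and 456 with MI-503, beside 2225 to 2312 with DMSO. Its difference was 2.67 ± 0.058 (6.37-fold), and its combination libraries, at 679 to 808, lay between the drugs and nearer to MI-503. MEF2C, a transcription factor of lymphoid-primed and leukaemic progenitors, had the largest difference on the list, at 2.95 ± 0.057 (7.72-fold), from 4577 to 4884 down to 559.8 to 673. PBX3, the other cofactor of HOXA9, differed by 2.21 ± 0.048, with 3290.3 to 3415 under AC220 and 695 to 750.2 under MI-503.

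Among the HOXA genes 3 of 11 listed passed the filter on low values. HOXA9 (chromosome 7, 27162438 to 27165537) gave 2019, 1832 and 2034 with AC220, overlapping DMSO at 1940.3 to 2146, and 535, 584 and 522 with MI-503. The difference was 1.84 ± 0.060 (3.58-fold). HOXA10 differed by 1.76 ± 0.056. The remaining tested HOXA gene, at a difference of -0.48, was not called between the drugs. TCF4, the E-protein of plasmacytoid dendritic and B cells, and JMJD1C, a JmjC-domain protein that leukaemia cells with MLL fusions need, were raised by AC220 and lowered by MI-503. TCF4 stood at 962 to 1069 with AC220, 522 to 585 with DMSO and 205 to 229.8 with MI-503. JMJD1C stood at 8838 to 9384, 5611 to 5869.7 and 2077 to 2117 in the same order. BCL2, the survival protein, was 2.25-fold higher with AC220 (1.17 ± 0.049), and CDK6, the kinase that opens the cell cycle in early progenitors, 1.84-fold (0.88 ± 0.056). For both of these AC220 alone was not called against DMSO (changes of 0.09 and -0.10), and the combination libraries were below both drugs, at 900.0 to 999 and 3540.1 to 4278. The single lower member was CDKN2C, which encodes the inhibitor p18 of CDK4 and CDK6 (-1.07 ± 0.061). MYB differed by only 0.35 ± 0.039.

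**Figure D2:**
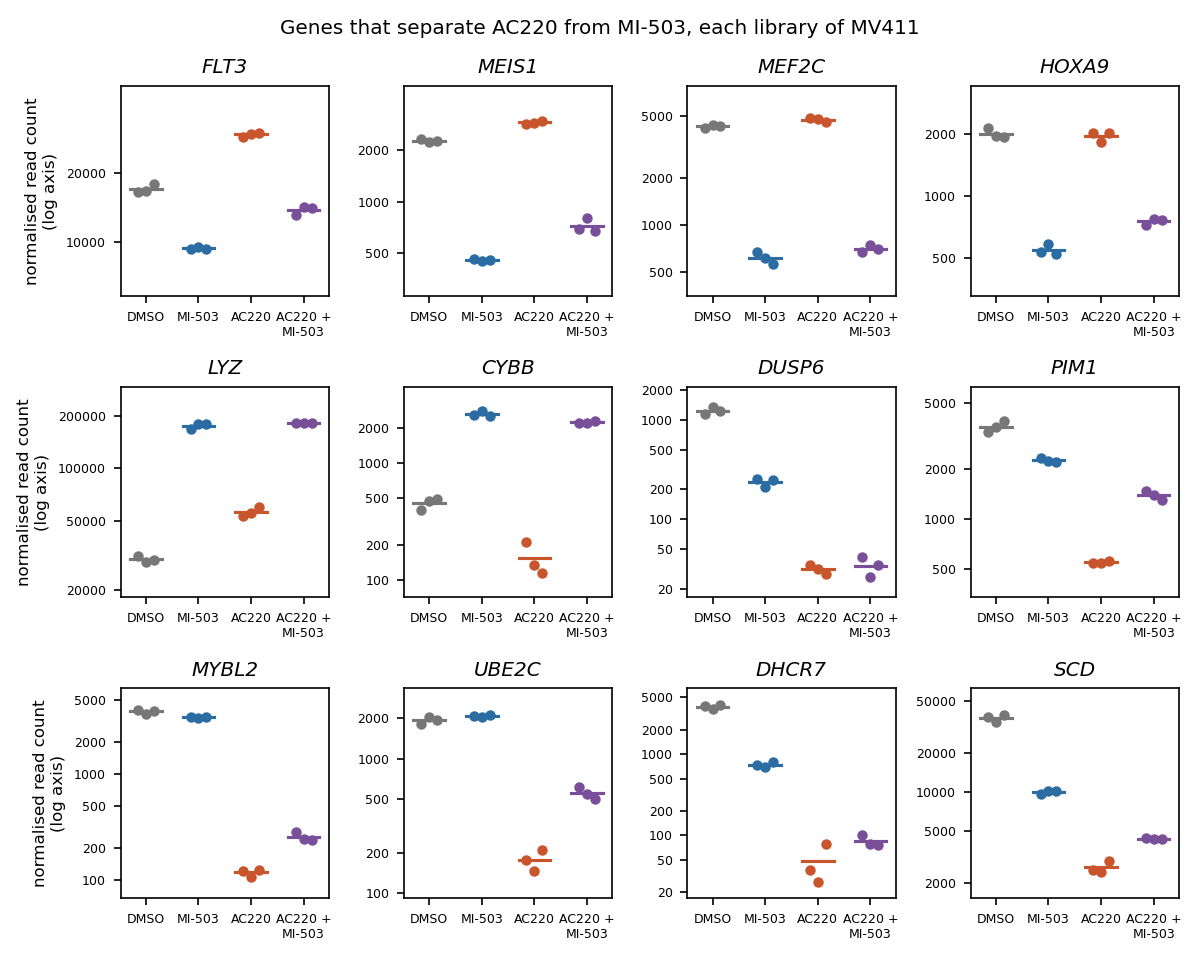
Normalised read counts (log axis) of 12 genes in each of the 12 MV411 libraries, with 3 points and a bar at the mean for each group. AC220 lies above MI-503 for FLT3, MEIS1, MEF2C and HOXA9 and below it for LYZ, CYBB, DUSP6, PIM1, MYBL2, UBE2C, DHCR7 and SCD, with no overlap of the 2 groups in any of the 12.

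Genes of the complexes that MI-503 addresses differed in both directions. The log2 difference was -0.23 ± 0.060 for MEN1 and 0.68 ± 0.039 for KMT2A. KMT2A had gone up with AC220 (change from DMSO 0.39) and down with MI-503 (-0.29), and reads of the fusion and of normal KMT2A were not separated. On the list of menin, MLL and DOT1L complex members 6 of 19 were higher and 10 lower with AC220, with a median of -0.12, where 33.8% and 34.5% of all tested genes were. ELL2, an elongation factor, was lower (-1.11 ± 0.091), as was PSIP1, which encodes the chromatin reader LEDGF (-0.76 ± 0.054). AFF1, the fusion partner, was higher (0.88 ± 0.038), and here too reads of the fusion and of the normal gene were not separated.

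On the monocyte and macrophage list 8 genes were at least 2-fold higher with MI-503 and 2 with AC220. Their differences, AC220 minus MI-503, ran from -4.38 to 2.50. The lowest was that of CD14, whose few reads make its size depend on the pseudocount. Of 19 tested genes on the monocyte and macrophage list 11 (57.9%) were lower with AC220 than with MI-503, where 34.5% of all tested genes were. The 7 higher members (36.8%) were near the 33.8% of all tested genes. Lysozyme, LYZ, is among the most abundant transcripts of monocytes (chromosome 12, 69348381 to 69354234). Its libraries gave 168981, 180664 and 179309 normalised reads with MI-503, 53388, 55297 and 59930.5 with AC220 and 29057 to 31405 with DMSO, so that both drugs were above DMSO and MI-503 was 3.14-fold above AC220 (-1.65 ± 0.043). CYBB, the catalytic subunit of the phagocyte NADPH oxidase, went opposite ways. It gave 2554, 2778 and 2524 with MI-503 and 210.2, 134 and 114 with AC220, on either side of DMSO at 396 to 488, a difference of -4.14 ± 0.13 or 17.6-fold. The combination, at 2201 to 2277, stood between the drugs and nearer to MI-503. S100A9 and S100A8 encode the subunits of calprotectin. S100A9 gave 692, 652 and 732 with MI-503 and 62.4, 92.5 and 48.8 with AC220, beside 122 to 145 with DMSO (-3.38 ± 0.15). S100A8 was lower with AC220 than with MI-503 by 3.74-fold, yet above DMSO with both. CD14, the endotoxin co-receptor, had few reads, 37.1, 31.2 and 20.4 with MI-503 against 1.92, 0.00 and 0.00 with AC220 and 7.61 to 9.77 with DMSO.

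Other myeloid genes went the opposite way. CSF1R, the receptor for M-CSF, gave 7309, 7435 and 7229 with AC220 and 4319, 4086 and 4081 with MI-503, both above DMSO at 3163 to 3594 (0.82 ± 0.046). ITGB7, an integrin chain, was 2.25-fold higher with AC220, and CX3CR1, the fractalkine receptor of monocytes, 2.96-fold. CX3CR1 stood at 2278 to 2478 with AC220 and 767 to 829 with MI-503, where the latter overlapped DMSO. Granulocyte genes gave 3 higher (30%) and 7 lower (70%) of 10 tested, beside 33.8% and 34.5% of all tested genes. The neutrophil proteases ELANE (-1.31 ± 0.075) and PRTN3 (-1.26 ± 0.066) were higher with MI-503. Summed over the monocyte list, most of it LYZ, the level was 50200.4 to 50725 with DMSO, 88686 to 94075 with AC220, 198660 to 209951 with MI-503 and 232978 to 234494 with the combination. Transcription factors of the myeloid line were divided at 8 higher (42.1%) and 9 lower (47.4%) of 19. KLF4, a monocyte factor, was lower with AC220 (-1.01 ± 0.090) and IRF4, a factor of dendritic and lymphoid cells, was higher (1.70 ± 0.080).

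Early progenitor genes were mixed. KIT, the receptor for stem cell factor and a relative of FLT3, had the largest difference above 0 on its list. It gave 649.7, 674 and 611 with AC220 and 119, 129 and 109 with MI-503, and the MI-503 libraries overlapped DMSO at 91.8 to 113. The difference was 2.43 ± 0.11 or 5.39-fold, and the combination gave 392 to 539. HHEX and LMO2, transcription regulators of blood stem cells, were higher with AC220 by 0.55 ± 0.069 and 0.43 ± 0.042, after a fall from DMSO with both drugs that was larger with MI-503. On the list of stem and progenitor genes 6 of 9 were higher with AC220 and 2 lower, beside 33.8% and 34.5% of all tested genes. At least 2-fold apart were 1 higher member, KIT, and 2 lower ones. The lowest difference on the list, -3.04, was further from 0 than that of KIT.

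MHC class II genes were raised by both drugs and differed less between them. The 8 tested members had median changes from DMSO of 1.76 with AC220 and 1.61 with MI-503, and a median difference between the drugs of 0.21, with 3 higher and 1 lower. CIITA, the master activator of these genes, gave 1551, 1338 and 1246 with AC220, 1004, 999.6 and 980.5 with MI-503 and 307 to 347 with DMSO. The difference of 0.46 ± 0.069 passed the test (adjusted p = 2.6e-06) and was small beside the rise from DMSO. CD74, the invariant chain, differed by 0.25 ± 0.051. Reads of the HLA genes can be split between near-identical copies and alleles, and HLA-DQB1 (-0.25 ± 0.062) is uncertain for that reason.

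The outputs of FLT3 signalling were lower with AC220 than with MI-503, but MI-503 had lowered many of them too. Of 18 tested genes on the ERK output list 10 were lower with AC220 and none was higher, with a median of -0.71. Their median changes from DMSO were -2.37 with AC220 and -1.44 with MI-503. DUSP6, the phosphatase that ERK induces and that switches ERK off (chromosome 12, 89347235 to 89352501), gave 1149.6 to 1335 with DMSO, 258, 211 and 250.2 with MI-503 and 34.5, 31.8 and 28.2 with AC220. The 3 groups did not overlap, and the difference between the drugs was -2.89 ± 0.14 or 7.4-fold. The combination, at 26.5 to 41.7, overlapped AC220. ETV5, an ETS factor induced by ERK, gave 122, 100.5 and 120.1 with AC220 and 881, 959 and 913 with MI-503 (-3.00 ± 0.079). SPRED2, which restrains RAS signalling, differed by -2.53 ± 0.083. Immediate early genes of the same list behaved otherwise. EGR1 (-0.03 ± 0.20), FOS (-0.08 ± 0.11) and FOSB (0.32 ± 0.24) were not called between the drugs, and all 3 had fallen with both.

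STAT5 target genes gave 2 higher (13.3%) and 10 lower (66.7%) of 15 tested, beside 33.8% and 34.5% of all tested genes. PIM1, a serine kinase that STAT5 induces in cells with mutant FLT3 (chromosome 6, 37170152 to 37175428), gave 542, 541 and 562 with AC220, 2325, 2249.6 and 2216 with MI-503 and 3348 to 3901 with DMSO, a difference of -2.04 ± 0.056 or 4.12-fold. The combination stood above AC220 alone, at 1310.1 to 1477. CISH, a feedback inhibitor of STAT5 (chromosome 3, 50606489 to 50611774), gave 718, 766 and 769.6 with AC220 and 2023, 1779 and 1798 with MI-503. The MI-503 libraries overlapped DMSO at 1737 to 1965, so that only AC220 had moved (-1.31 ± 0.069). IL2RA, the interleukin-2 receptor alpha chain, differed by -1.89 ± 0.075. It had fallen with AC220 (-1.52 from DMSO) and risen with MI-503 (0.37). SOCS2, another feedback inhibitor, differed by -0.21 ± 0.074 (adjusted p = 0.015), a call that did not hold without AC220 replicate 2, where the difference was -0.16, without MI-503 replicate 1 (-0.18) or without MI-503 replicate 2 (-0.17), nor with no variance trend (adjusted p = 0.055).

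The promoter of CISH is shown because, of 11 STAT5 targets with a promoter entry, it holds the most copies of the STAT5 word TTCNNNGAA, searched on both strands. The sequences here are RefSeq's, on GRCh38.p14, 5′ to 3′ on the gene's strand, and run from 250 bases before to 50 bases after the gene start. Capitals mark the word, which occurs 4 times in CISH (chr3:50611725-50612024, minus strand), and 2 of the 11 STAT5 targets hold it, as do 7.88% of all promoters of that length.
CISH: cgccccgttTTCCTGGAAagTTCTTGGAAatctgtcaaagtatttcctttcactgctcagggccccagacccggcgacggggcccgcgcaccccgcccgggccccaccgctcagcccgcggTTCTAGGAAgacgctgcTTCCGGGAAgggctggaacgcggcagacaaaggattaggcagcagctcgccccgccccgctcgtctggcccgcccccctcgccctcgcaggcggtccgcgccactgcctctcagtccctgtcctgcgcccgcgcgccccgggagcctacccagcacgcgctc

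Genes that FOXO factors activate in other cells tended to be higher with AC220, with a median of 0.34. Of 19 tested, 11 were higher (57.9%) and 3 lower (15.8%), beside 33.8% and 34.5% of all tested genes. TXNIP, an inhibitor of thioredoxin and of glucose uptake, was the largest. It gave 46217, 46000.5 and 43955 with AC220, 19804 to 21691 with DMSO and 10761, 10868 and 10868 with MI-503, wholly apart and in opposite directions from DMSO (2.07 ± 0.038 between the drugs). TSC22D3, which encodes GILZ, was higher with AC220 by 1.07 ± 0.062. CDKN1B, which encodes the inhibitor p27, was 1.91-fold higher (0.93 ± 0.056). It was not called against DMSO with AC220 (-0.10) and had fallen with MI-503 (-1.03). The largest of the 3 lower members was IL7R, the interleukin-7 receptor (-1.58 ± 0.16).

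Mitosis and DNA replication had the lowest median differences of the 42 lists. All 30 tested mitosis genes and 33 of 34 DNA replication genes were lower with AC220 than with MI-503, where 34.5% of all tested genes were. The median differences were -2.87 and -2.18. With MI-503 their median changes from DMSO were -0.06 and -0.21, while with AC220 the medians were -2.88 and -2.27. MI-503 was called lower than DMSO for 7 of the 30 mitosis genes and 21 of the 34 replication genes. The share of all tested genes called lower was 30.8%. MCM10, which acts at the start of DNA unwinding (chromosome 10, 13161558 to 13211110), gave 43.2, 26.9 and 40.4 normalised reads with AC220 and 1159.9, 1230.5 and 1253 with MI-503, beside 1623 to 1756 with DMSO. This was a difference of -5.03 ± 0.13 or 32.8-fold. CDC45, a part of the replicative helicase, differed by -4.88 ± 0.10, and GINS2, another part, by -3.83 ± 0.095. In mitosis UBE2C, the ubiquitin-conjugating enzyme of the anaphase-promoting complex, gave 176, 146 and 210.2 with AC220 and 2083, 2054 and 2095 with MI-503 (-3.56 ± 0.091). Its MI-503 libraries lay above those of DMSO (1813 to 2024), a change of 0.11 that was not called. AURKB, the kinase of the chromosomal passenger complex, was 11-fold lower with AC220, and NDC80, a kinetochore protein, 10.5-fold. Summed over the replication list the combination gave 26399 to 26970.0 and AC220 26374 to 26984, while the mitosis list gave 31069.5 to 33882 and 15529 to 18493, so that the combination overlapped AC220 for the first list and was above it for the second.

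Of the G1 cyclins, kinases and E2F factors 16 of 18 were lower with AC220. E2F2, an activator of S phase genes, gave 14.4, 9.95 and 20.6 with AC220 and 592, 608 and 576 with MI-503, with DMSO at 462 to 479, and had the second largest difference of all tested genes (-5.27 ± 0.16, 38.5-fold). MYBL2, the B-Myb factor that drives genes of late S phase and mitosis, gave 122, 108 and 126 and 3446, 3377 and 3485, a difference of -4.85 ± 0.068 (adjusted p = 1.6e-24). E2F8 differed by -4.15 ± 0.13. The 2 higher members of that list included CDK6, given above. CDK inhibitors went both ways. CDKN1C, which encodes p57, was higher with AC220 at 241.8, 208.9 and 200.8 against 50.1, 44.8 and 61.3 with MI-503, where DMSO was 45.2 to 58.0. CDKN2C, given above, was lower with AC220.

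Histone transcripts ran against the rest of the S phase genes. Of 8 tested genes on the list of replication-dependent histones 6 were higher with AC220 and none was lower (median 1.67). HIST1H2AC gave 375, 362 and 343 with AC220, 61.2, 63.3 and 83.7 with MI-503 and 104 to 149 with DMSO. HIST1H2BK was 4.76-fold higher with AC220. The libraries were made from polyadenylated RNA, and most replication-dependent histone messages carry no poly(A) tail. The part of polyadenylation in these values was not tested. Histone genes also have near-identical copies, which makes the single values uncertain.

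Nucleotide synthesis followed replication, with 25 of 27 genes lower with AC220 (median -0.78). TK1, thymidine kinase, gave 139, 102 and 131 with AC220 and 1886, 1768 and 1792 with MI-503 (-3.87 ± 0.089). RRM2, the regulated subunit of ribonucleotide reductase, differed by -3.21 ± 0.075 and had fallen with MI-503 too (-0.82 from DMSO). TYMS, thymidylate synthase, differed by -2.97 ± 0.062.

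Promoters of 2 replication genes and 2 mitosis genes are shown, since members of both lists moved together. E2F words (TTTGGCGC, TTTCCCGC, TTTCGCGC and TTTGCCGC, on both strands) were found in 16 of 29 replication promoters, which is 55.2%, in 12% of 25 mitosis promoters and in 3.33% of 27305 promoters of the same length. The word CCAAT, which the factor NF-Y binds, was in 76% of the mitosis promoters, 58.6% of the replication promoters and 35.7% of all. It was not particular to these lists, since 83.3% of the cholesterol synthesis promoters held it. The shares were 41.2% for FOXO targets, 27.3% for STAT5 targets, 27.3% for lysosome genes and 26.3% for MLL fusion targets. The promoters shown were chosen among those with the most words, and ties were ordered by the difference, lowest first. MCM2 was tied with MCM3 and MCM7 at 2 E2F words. TOP2A and CCNB2 were tied with CENPF at 4 CCAAT words. The differences given below for these 3 genes are thus not independent of the choice. MCM6 (chr2:135876394-135876693, minus strand) and MCM2 (chr3:127598161-127598460, plus strand), subunits of the replicative helicase, carry E2F words in capitals, and words on opposite strands that overlap form 1 run. TOP2A (chr17:40417847-40418146, minus strand), which untangles chromosomes, and CCNB2 (chr15:59104896-59105195, plus strand), a mitotic cyclin, carry CCAAT or its reverse complement ATTGG in capitals.
MCM6: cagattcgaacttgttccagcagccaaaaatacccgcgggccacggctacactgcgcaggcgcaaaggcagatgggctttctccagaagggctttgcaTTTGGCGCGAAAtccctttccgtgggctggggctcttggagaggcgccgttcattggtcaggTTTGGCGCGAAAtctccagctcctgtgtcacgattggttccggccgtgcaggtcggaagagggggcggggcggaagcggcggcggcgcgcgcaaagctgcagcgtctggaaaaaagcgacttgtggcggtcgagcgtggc
MCM2: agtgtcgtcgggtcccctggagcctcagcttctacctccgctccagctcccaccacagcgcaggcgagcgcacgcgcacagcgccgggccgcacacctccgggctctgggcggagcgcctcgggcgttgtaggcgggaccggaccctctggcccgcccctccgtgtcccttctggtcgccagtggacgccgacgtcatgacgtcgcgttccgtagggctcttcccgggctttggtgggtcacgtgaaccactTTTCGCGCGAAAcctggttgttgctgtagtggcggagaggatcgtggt
TOP2A: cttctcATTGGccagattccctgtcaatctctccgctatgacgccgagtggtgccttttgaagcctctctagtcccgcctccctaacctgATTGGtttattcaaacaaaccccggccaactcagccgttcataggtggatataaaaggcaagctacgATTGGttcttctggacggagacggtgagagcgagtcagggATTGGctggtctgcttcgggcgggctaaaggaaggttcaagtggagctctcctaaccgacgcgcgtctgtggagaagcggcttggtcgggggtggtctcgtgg
CCNB2: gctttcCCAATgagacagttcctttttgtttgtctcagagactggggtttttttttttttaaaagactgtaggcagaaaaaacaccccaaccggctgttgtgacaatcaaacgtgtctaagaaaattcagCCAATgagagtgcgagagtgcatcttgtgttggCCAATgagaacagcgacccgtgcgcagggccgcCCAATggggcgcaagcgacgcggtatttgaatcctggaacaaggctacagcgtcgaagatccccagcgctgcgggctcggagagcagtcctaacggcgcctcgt
MCM6 gave 1011, 1135 and 1176 with AC220 and 5143, 5506 and 5373 with MI-503 (-2.27 ± 0.051), and MCM2 differed by -2.67 ± 0.053. TOP2A gave 2107, 1789 and 2207 and 17225, 18187 and 17079.5 (-3.11 ± 0.062), and CCNB2 differed by -2.68 ± 0.056. A match is a description of the sequence and not a binding site.

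Over the whole comparison the same words were counted in the promoters that could be matched by symbol, 10152 of 14421 tested genes. E2F words were in 5.29% of these, in 10.6% of the genes at least 2-fold lower with AC220, in 16.5% of those at least 4-fold lower and in 2.41% of those at least 2-fold higher. CCAAT was in 36.4%, 42.7%, 51.3% and 30.8% in the same order. The STAT5 word was in 6.5% of tested genes, 7.05% of the genes at least 2-fold lower and 8.85% of those at least 2-fold higher. These shares are descriptions, and genes of 1 pathway share words.

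MYC and the growth programme were lower with AC220. MYC, the transcription factor of growth, gave 5894, 5652 and 5500.4 with AC220 and 8573, 7969.5 and 8234 with MI-503, from 14591 to 15647 with DMSO, a difference of -0.54 ± 0.042 (1.45-fold). The combination was lower than either drug, at 2726 to 2888. Of 30 MYC and ribosome biogenesis genes 29 were lower with AC220 and 1 was higher (median -0.60). NOLC1, a nucleolar phosphoprotein, gave 3280.1, 3666 and 3449.9 and 7837, 8156 and 7701 (-1.19 ± 0.044), and TCOF1, the treacle protein of ribosomal RNA synthesis, differed by -1.25 ± 0.060. Neither was called with MI-503 against DMSO.

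Chaperones and the proteasome were lower as well, at 15 of 16 and 22 of 29. HSPA8, the constitutive HSP70, differed by -1.05 ± 0.044, and HSPE1, the mitochondrial co-chaperonin, by -1.36 ± 0.054. PSMC3, a proteasome ATPase, differed by -0.81 ± 0.049. Cytosolic ribosomal proteins differed in size of change and not in its direction. Both drugs had raised their median from DMSO, 0.29 with AC220 and 0.43 with MI-503, and 25 of 42 were lower with AC220 (median -0.13). Ribosomal protein genes have many processed copies, so single values are uncertain. Mitochondrial ribosomal proteins gave 3 higher and 19 lower of 31, and oxidative phosphorylation 7 higher and 21 lower of 35, with medians of -0.18 and -0.15.

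Sterol and fatty acid synthesis was lower with both drugs than with DMSO and lowest with AC220. Of 24 cholesterol genes 22 were lower with AC220 than with MI-503 and none was higher, with a median of -0.72. Median changes from DMSO were -2.04 with AC220 and -1.34 with MI-503. DHCR7, the last enzyme of cholesterol synthesis (chromosome 11, 71427287 to 71449043), gave 37.4, 26.9 and 78.8 with AC220, 726, 692 and 808 with MI-503 and 3567 to 4060.3 with DMSO, a difference of -4.07 ± 0.21 or 16.8-fold. The third AC220 library was more than 2-fold above the others and still far below MI-503. Desaturases of fatty acids followed. FADS2 differed by -2.74 ± 0.065, FADS1 by -2.72 ± 0.060 and SCD by -1.92 ± 0.056, where SCD gave 34480.4 to 39224 with DMSO, 9692 to 10238 with MI-503 and 2463 to 2986 with AC220. Of 13 fatty acid synthesis genes 10 were lower with AC220 and 1 was higher.

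Amino acid synthesis under ATF4 was lower with AC220 in 24 of 28 genes (median -0.67). PHGDH, the first enzyme of serine synthesis, gave 90.2, 94.5 and 149 with AC220 and 990.5, 931 and 1046 with MI-503, from 2724 to 3072 with DMSO (-3.18 ± 0.12). PSAT1, the next enzyme, differed by -2.04 ± 0.087 and TRIB3, a pseudokinase induced in stress, by -1.99 ± 0.13. In the combination PSAT1 was below either drug, at 153 to 181.

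Glycolysis was lower with AC220 in 14 of 22 genes and higher in 5. LDHA, lactate dehydrogenase, gave 7755, 7594 and 7916 with AC220 and 13315, 13973 and 13039 with MI-503, from 31456 to 34650.5 with DMSO (-0.79 ± 0.042). PKM, pyruvate kinase, differed by -0.90 ± 0.044, and SLC2A3, a glucose transporter, by -1.01 ± 0.074. Genes of the hypoxia response were the reverse, with 7 of 13 higher with AC220 (53.8%) and 2 lower (15.4%). The shares of all tested genes were 33.8% and 34.5%. Median changes of the hypoxia genes from DMSO were -0.56 with AC220 and -0.83 with MI-503. P4HA1, a collagen prolyl hydroxylase, gave 1939, 1601 and 1888 with AC220, 965, 910.0 and 893 with MI-503 and 4583 to 5716 with DMSO. BNIP3, a mitophagy receptor, differed by 0.93 ± 0.097. HMOX1, haem oxygenase and an NRF2 target, fell with both drugs, from 2143 to 2695 to 146, 139 and 173 with MI-503 and 321, 198 and 492 with AC220, where its libraries spread more than 2-fold (1.04 ± 0.18). Lysosomal genes showed no common direction, at 13 higher and 13 lower of 33 (39.4% each), near the shares of all tested genes. Their median difference was -0.02, although their medians were 0.51 and 0.42 above DMSO. TFEB, the factor that activates lysosomal genes, was higher with AC220 (0.66 ± 0.077).

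Genes of survival and death gave no common direction. In the BCL2 family of survival proteins 3 of 7 were higher with AC220 and 3 lower (42.9% each), beside 33.8% and 34.5% of all tested genes. BCL2L10 gave 489, 487 and 508 with AC220 and 146, 168 and 125 with MI-503, on either side of DMSO at 269 to 287. Of the BH3-only and effector genes 4 of 11 were higher and 4 lower (36.4% each), near the shares of all tested genes. BMF, a BH3-only protein, gave 9701, 9818 and 9389 with AC220 and 4592, 4836 and 4923 with MI-503, both above DMSO at 3231 to 3920.5 (1.01 ± 0.054). BCL2L11, which encodes BIM, was not called, at 0.11 ± 0.052 with a 95% interval of 0.00 to 0.22 and an adjusted p of 0.07, but it passed with equal library totals (adjusted p = 0.028) and with no variance trend (0.0496). Targets of p53 gave 9 higher (37.5%) and 10 lower (41.7%) of 24, also near those shares. The interferon response was higher with AC220 in 16 of 26 genes (61.5%) and lower in 3 (11.5%), with a median of 0.50. RSAD2, an antiviral enzyme, gave 345, 416 and 379 with AC220 and 141, 143 and 124 with MI-503, from 58.6 to 87.6 with DMSO. OAS2 differed by 1.34 ± 0.099 and had fallen with MI-503 (-0.80 from DMSO).

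**Figure D3:**
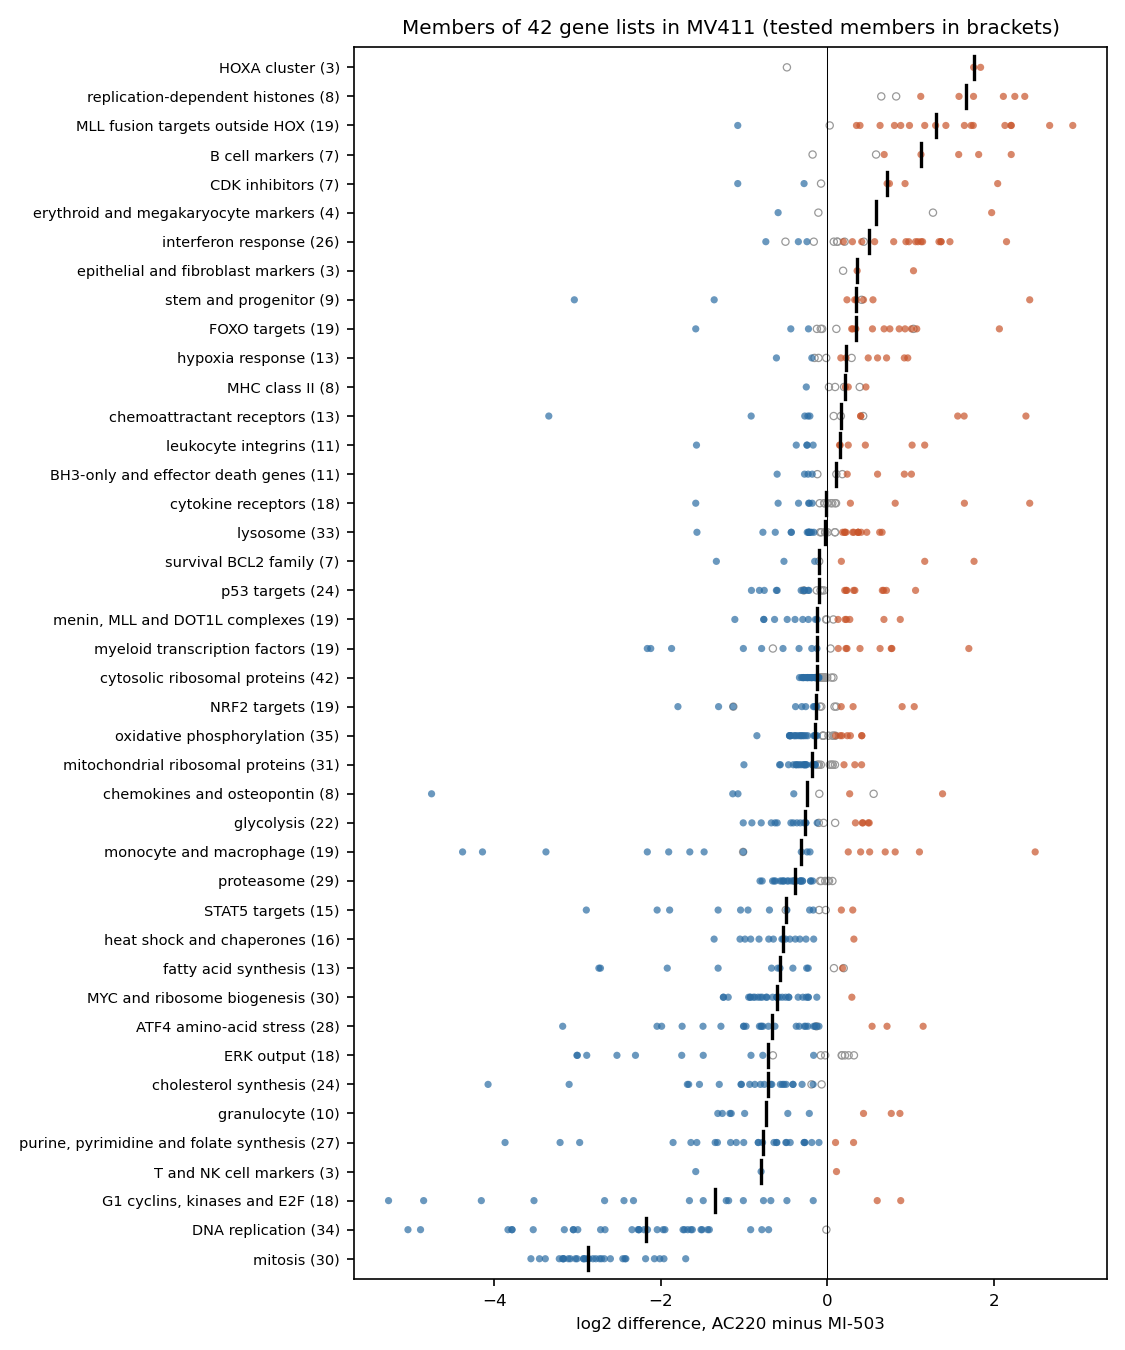
Each point is a tested member of 1 of 42 gene lists, placed at its log2 difference, AC220 minus MI-503, filled orange where higher with AC220 and blue where lower at an adjusted p under 0.05, open where not called. The black bar is the median of the list, from -2.87 for mitosis to 1.76 for the HOXA cluster, which had only 3 tested members.

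The genes with the largest differences outside these lists were of many kinds. Higher with AC220, the largest among genes with a mean of at least 100 was CSMD3, a large transmembrane protein (chromosome 8, 112222928 to 113436939). It gave 1105, 1099 and 1071 with AC220 and 53.1, 50.7 and 58.4 with MI-503, from 628 to 735 with DMSO, a difference of 4.31 ± 0.13 or 19.9-fold. UGCG, which makes glucosylceramide, gave 3680.3, 3575 and 3713 with AC220, 359, 437 and 409.9 with MI-503 and 3318 to 3491 with DMSO, and AC220 was not called against DMSO (3.19 ± 0.072 between the drugs). RAB27B, a GTPase of secretory vesicles, had likewise fallen with MI-503 alone (2.83 ± 0.16). SLC4A3, an anion exchanger, and NLRP4, of the NOD-like receptor family, had instead gone up with AC220 and down with MI-503. SLC4A3 gave 371, 345 and 353 and 26.1, 25.3 and 41.9 around DMSO at 53.3 to 80.3. TLR10, a Toll-like receptor, was not called with MI-503 against DMSO and was 7.68-fold higher with AC220 than with MI-503. DAPK2, a calmodulin-regulated kinase, was 7.95-fold higher, after changes from DMSO of 2.43 with AC220 and -0.56 with MI-503. SCARA5, a ferritin receptor, had risen with both drugs from 2.01 to 2.93, to 25.3 to 40.1 with MI-503 and 167 to 237 with AC220. JMJD1C-AS1 had a large difference (3.49 ± 0.17), but it lies antisense to JMJD1C and the sources used here do not say whether counting used strand, so its reads cannot be told apart from those of JMJD1C.

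Lower with AC220, the largest difference of all belonged to PRLR, the prolactin receptor (chromosome 5, 35048756 to 35230487). It gave 5.76, 3.98 and 4.69 with AC220 and 338, 342 and 288 with MI-503, on either side of DMSO at 36.1 to 44.7, a difference of -5.81 ± 0.18 or 56-fold. Its combination libraries, at 40.6 to 44.1, overlapped DMSO. SERPINB10, a serpin of bone marrow cells, had risen with MI-503 alone, from 6.02 to 6.84 to 198, 185 and 185, and stood at 6.72, 7.96 and 10.3 with AC220. XRCC2 of homologous recombination (-4.26 ± 0.13), ASF1B, a histone chaperone (-4.11 ± 0.077), and SPC24 and SPC25 of the NDC80 complex (-4.11 ± 0.13 and -4.18 ± 0.17) were lower with AC220. They were not called with MI-503 against DMSO, nor were UBE2C, NDC80, E2F2 and E2F8 above. MCM10, CDC45, GINS2 and MYBL2 were called lower with MI-503 than with DMSO, and AURKB was called higher.

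A stricter group held genes with DMSO wholly between the drugs, a called change of at least 1.5-fold from DMSO with each and a DMSO mean of at least 100. There were 32 genes that AC220 raised and MI-503 lowered, FLT3 and TXNIP among them, and 19 of the opposite kind, CYBB and S100A9 among them. KLF10, a Krüppel-like factor of TGF-beta signalling, gave 3593, 3366 and 3534 with AC220, 1484 to 1659 with DMSO and 786, 852 and 822 with MI-503. PAM, which amidates peptide hormones, showed the same order with fewer reads (2.44 ± 0.16), but its combination libraries, at 12.4 to 17.4, were below both drugs. Of the opposite kind GLIPR2 gave 82.5, 79.6 and 93.8 with AC220, 295 to 301 with DMSO and 689.7, 734 and 805 with MI-503. CIT, the citron kinase of cytokinesis, gave 314, 300.4 and 318, 1501 to 1631 and 2410.0, 2437 and 2527 in that order (-2.98 ± 0.053). HOMER3, a scaffold protein, differed by -2.59 ± 0.085, and PIF1, a DNA helicase, by -2.69 ± 0.11. At the other extreme 1 gene had changed at least 4-fold the same way with both drugs and kept a narrow 95% interval of their difference. This was PAQR8, a membrane progestin receptor, at 2211, 2203 and 2095 with AC220 and 1949, 2058 and 2095 with MI-503, up from 368 to 412, with a difference of 0.09 ± 0.053 and an interval of -0.02 to 0.20.

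**Figure D4:**
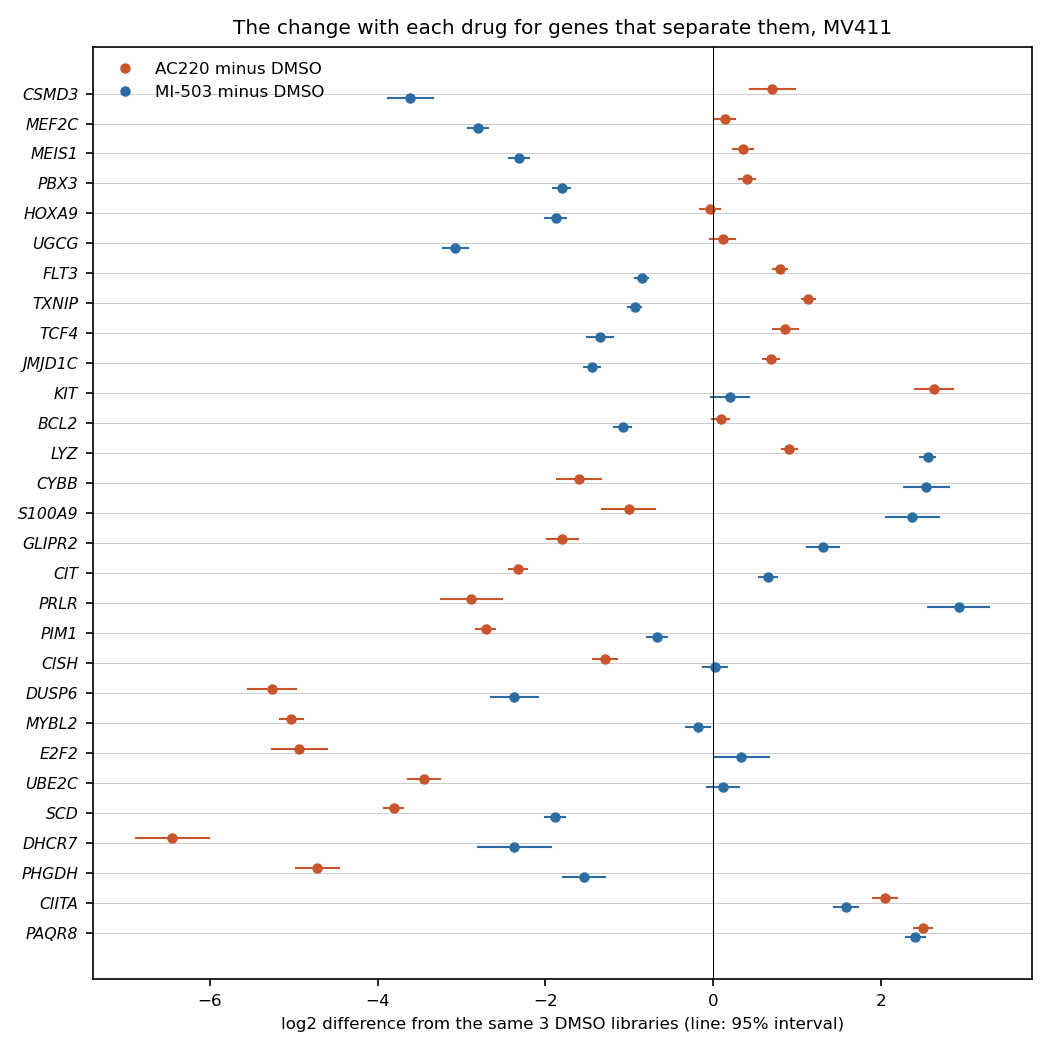
Log2 change from the same 3 DMSO libraries with AC220 (orange) and with MI-503 (blue) for 29 genes, with 95% intervals. The pairs lie on opposite sides of 0 for genes such as FLT3, TXNIP, CYBB and PRLR, apart on 1 side for DUSP6 and DHCR7, and together for PAQR8 (2.50 and 2.41).

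Markers of other cell types were checked in the same libraries. Epithelial and fibroblast markers had 3 of 11 members above the filter and a summed level of 183 to 204 with AC220 and 146 to 150.4 with MI-503. Haemoglobin genes and GATA1 did not pass it, and 4 of 15 erythroid and megakaryocyte markers did. ITGA2B, the platelet integrin chain, gave 823 to 983 with AC220 and 217 to 254 with MI-503 (1.97 ± 0.097). The CD3 genes did not pass. The 3 T and NK markers that did were CD4, which monocytes also express, NKG7 and IL7R. B cell genes were 5 of 7 higher with AC220, at a summed level of 226 to 286 against 119.8 to 136 with MI-503 and 245 to 283 with DMSO, and MS4A1 did not pass the filter. The part of these markers in the results above was not tested.

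In the combination both drugs were present, and its 3 libraries were placed relative to those of each drug for the separating genes. Combination libraries 1 and 3 were the least alike pair within any MV411 group. A wider range of the 3 libraries makes overlap with a drug more common. Of the 1100 genes at least 2-fold lower with AC220 the combination lay wholly between the drugs in 467 (42.5%) and overlapped only the AC220 libraries in 336 (30.5%). It overlapped only the MI-503 libraries in 101 (9.18%), lay below both in 119 (10.8%) and lay above both in 64 (5.82%). Of the 793 genes at least 2-fold higher with AC220 it lay between in 285 (35.9%), with AC220 in 243 (30.6%), with MI-503 in 141 (17.8%), above both in 72 (9.08%) and below both in 25 (3.15%). On the log2 scale the combination was nearer to AC220 than to MI-503 in 775 of the first set (70.5%) and 502 of the second (63.3%). The same counts were not made over all tested genes. Both sets were chosen on the AC220 and MI-503 libraries, so these shares describe the chosen genes and not the combination at large. MEF2C overlapped MI-503, at 672 to 742 in the combination against 559.8 to 673, and LYZ was above both drugs, at 181590 to 183690. KIT, DUSP6 and MCM10 were nearer to AC220.

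**Figure D5:**
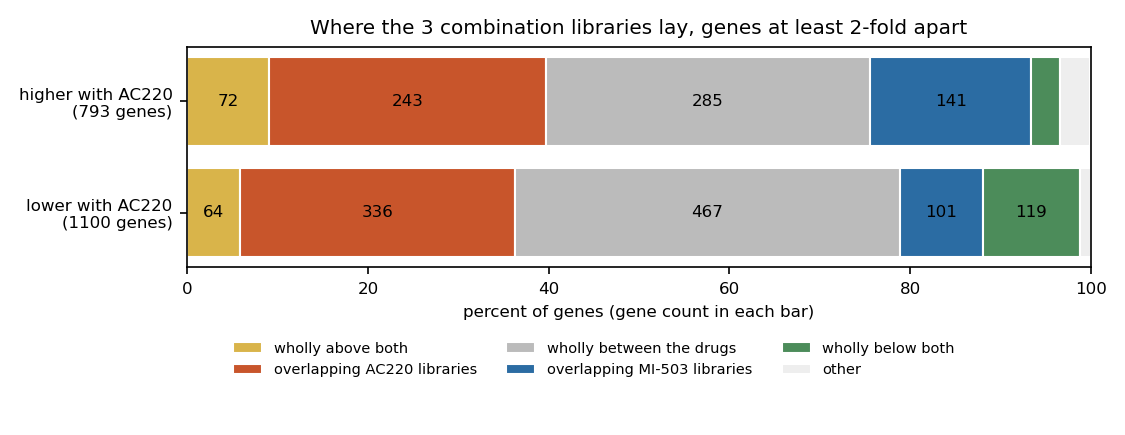
Share of the genes at least 2-fold lower (1100) or higher (793) with AC220 than with MI-503, by where the 3 combination libraries lay relative to the 3 libraries of each drug. The largest class in both bars is wholly between the drugs, at 42.5% and 35.9%.

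MI-503 was also given to MOLM13, which carries an MLL fusion and the FLT3 duplication, and to OCI-AML3, which carries mutant NPM1 and no MLL fusion. These libraries had no part in choosing the genes. The comparison with DMSO called 29.9% of genes higher and 29.9% lower in MOLM13, and 32.9% higher and 32.8% lower in OCI-AML3, after rescaling to the median gene. The 793 genes that were at least 2-fold higher with AC220 than with MI-503 in MV411 had 447 members tested in MOLM13. MI-503 lowered 106 of these (23.7%) and raised 173 (38.7%). In OCI-AML3 it lowered 235 of 563 (41.7%) and raised 133 (23.6%). For the 1100 genes at least 2-fold lower with AC220, MI-503 raised 290 of 957 (30.3%) and lowered 376 (39.3%) in MOLM13, and raised 518 of 1066 (48.6%) and lowered 263 (24.7%) in OCI-AML3. The doses were the same and the times were 4 days here and 3 days in MV411. On the deposited scale the median gene changed by -0.54 in MOLM13 and -0.16 in OCI-AML3 on the log2 scale. Of all genes tested on both scales the deposited values called 6.76% raised and 76.8% lowered in MOLM13. Beside these 19.1% of the first set were raised and 51.9% lowered, and 13.1% and 72.7% of the second. For the first set the raised share was thus the larger after rescaling, and the lowered share was the larger on the deposited scale. In OCI-AML3 the deposited values called 3.85% of all genes raised and 6.80% lowered. The shares there were 5.92% raised and 22.8% lowered for the first set, and 10.2% and 7.23% for the second. Whether the deposited scale follows spike-in RNA in these lines is not given in the sources used here, and if it does, the rescaling removed that measure of RNA per cell.

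On the MLL target list MI-503 lowered 16 of 19 tested genes in MV411, with 14 of 19 lower in MOLM13 (median -0.50) and 17 of 18 in OCI-AML3 (median -0.64). MEIS1 changed by -1.65 in MOLM13 and -2.62 in OCI-AML3, beside -2.31 in MV411, and FLT3 by -0.61 and -1.07 beside -0.85. These changes are relative to the median gene. The cholesterol genes went another way. In MOLM13 MI-503 raised 23 of 24 (median 1.09), in OCI-AML3 it raised 12 and lowered 4, and in MV411 their median was -1.34. LYZ rose with MI-503 in all 3 lines, by 1.80 in MOLM13, 0.65 in OCI-AML3 and 2.55 in MV411. PRLR and SERPINB10 rose in both other lines as well, PRLR by 3.23 and 2.63 and SERPINB10 by 6.13 and 3.38. CYBB rose in MOLM13 (2.76) and fell in OCI-AML3 (-1.74). Both PRLR and SERPINB10 had few reads in MOLM13 with DMSO, so that the size of their change there depends on the pseudocount. The difference between lines was not tested here.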

How the data were processed

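RNA of 24 libraries was sequenced, 12 of them from MV411. The deposited values are a signal per gene, normalised expression values that the authors made with DESeq version 2 on hg38, per the submitters' processing notes. Aligner, counting program, strand use and annotation are not given in the sources used here. In every library all values (100%, within 0.001 of a whole number) were whole reads divided by 1 factor. In MV411 that factor was the one the median-of-ratios method gives from the genes themselves. Column names in MV411 and OCI-AML3 and the names of all 3 tables refer to spike-in RNA, yet the deposited MV411 values carry no measure of total RNA per cell. In MOLM13 and OCI-AML3 the factor was another one, and whether it came from spike-in RNA is not given in the sources used here. Values there were rescaled by the median-of-ratios method, which would remove a spike-in scale.

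The 12 MV411 libraries shared 1 fit with limma 3.58.1 in R 4.3.3, on log2(value + 1), keeping genes that reached 10 in 3 or more libraries, with a variance trend and Benjamini-Hochberg adjustment over all tested genes (two-sided, threshold 0.05). Each other line had its own fit. The code was tested on simulated data. Alternatives used edgeR 4.0.16 and DESeq2 1.42.0 on the recovered reads, other factors, pseudocounts and filters, a replicate block, and each replicate left out.

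The comparison, the 42 gene lists and the naming rule were chosen with earlier results of these data known. Genes named were 22 fixed ones, up to 3 called members of each list with the largest difference and a mean of at least 100 in the higher group, the 12 largest differences per direction, the 8 largest per direction with DMSO wholly between the drugs, and genes changed alike by both drugs; members of lists outside that rule, and genes whose promoters are shown, are named for their role or sequence after their values were seen. Where promoters tied in the number of words, the difference decided which was shown. List symbols were matched as written, and 3 of them (ERO1A, TIGAR and TRAC) had no match. Gene positions are RefSeq's on GRCh38.p14. Values of a few list members are not reported here.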

Additional observations from a re-analysis of the deposited data

Results flagged for a closer look

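CYBB, the oxidase subunit, moved in opposite directions with MI-503 in different lines, with every MI-503 library on 1 side of every DMSO library in each line. Its log2 ratio of group means, MI-503 over DMSO, was 2.54 in MV411, 2.75 in MOLM13 and -1.74 in OCI-AML3. DMSO levels were 396 to 488 in MV411, 10.2 to 22.6 in MOLM13 and 50108 to 51167 in OCI-AML3, on scales set separately in each line.

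Summed over the 24 cholesterol synthesis genes the same ratio was -1.25 in MV411, 1.12 in MOLM13 and 0.10 in OCI-AML3, again with no overlap of MI-503 and DMSO libraries within a line. These values are relative to the median gene of each line, and the value in OCI-AML3 is smaller than the shift of the median gene on the deposited scale there (-0.16). The difference between lines was not tested, and the days of treatment also differed.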

How the results depend on the processing

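The counts over all genes kept within 1.5 times of the values given under every alternative, with 1 exception among them. With a minimum value of 50 in place of 10 the genes at least 2-fold higher with AC220 numbered 480 in place of 793, and fewer genes were tested (12350). On recovered reads edgeR called 9946 genes and DESeq2 9441. Leaving out 1 AC220 or MI-503 library gave 9241 to 9346 called genes, 4553 to 4607 higher and 4680 to 4774 lower, and 760 to 818 at least 2-fold higher and 1082 to 1123 lower.

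Deviations of same-numbered AC220 and MI-503 libraries over 11055 genes correlated at 0.28, -0.07 and -0.07. Those of differently numbered libraries correlated at -0.20 to 0.25. The same numbers were thus not consistently closer, but these values cannot settle whether any libraries shared a batch. A fit with the replicate number as a block called 9842 genes, 792 of them at least 2-fold higher and 1101 lower.

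On the deposited scale of the other lines, which keeps a shift of the median gene, MI-503 in MOLM13 raised 19.1% and lowered 51.9% of the genes at least 2-fold higher with AC220 in MV411, and raised 13.1% and lowered 72.7% of those at least 2-fold lower, beside 6.76% and 76.8% of all genes tested on both scales. In OCI-AML3 the shares were 5.92% and 22.8%, and 10.2% and 7.23%, beside 3.85% and 6.80% of all genes. Leaving out 1 library in these lines, chosen after seeing the data, gave 34.7% to 38.0% and 21.5% to 23.9% for the first set and 27.9% to 30.6% and 36.2% to 38.9% for the second in MOLM13, and 21.9% to 23.8%, 37.7% to 41.4%, 46.7% to 50.5% and 22.4% to 27.0% in OCI-AML3. Of 153 named genes 147 kept their side of the threshold under all 17 alternatives that could be run, 6 did not (SOCS2, CXCL16, CD4, KRT8, ITGAM and BCL2L11), and none changed direction.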
